A study of Mus musculus with 45 samples.

Results

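The genes described here are 10 genes of red cell glycolysis, named Hk1, Gpi1, Pfkl, Pfkm, Aldoa, Tpi1, Gapdh, Pgk1, Bpgm and Pklr. They were chosen by name, and all 10 were among the 24333 genes of the gene score table. A gene score summarises the accessible chromatin fragments (ATAC, which cuts open DNA with a transposase) assigned to a gene in a single nucleus, so it measures accessibility and not the amount of messenger RNA or enzyme. The scores came from Ter119+ erythroblasts, red cell precursors sorted by a surface protein, of Stag2 WT and Stag2 KO mice. Both genotypes received pIpC, and cells were taken 6 to 8 weeks after dosing ended. The Stag2 protein is part of cohesin, a ring that holds chromatin loops. The series holds 45 samples, of which 6 multiome ATAC libraries were used, 3 WT and 3 KO, with 4617 to 6990 nuclei each and 34073 in all. The age and sex of the animals, the promoter that drives the recombinase and the deleted part of Stag2 were not given in the sources used here.

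A maturing red cell loses its mitochondria and comes to make its ATP by glycolysis alone. Hexokinase (Hk1) traps glucose, and phosphofructokinase (Pfkl, Pfkm) commits the sugar to the pathway. Aldolase (Aldoa) splits it into triose phosphates, which triosephosphate isomerase (Tpi1) interconverts. Gapdh, phosphoglycerate kinase (Pgk1) and pyruvate kinase (Pklr) recover reducing power and ATP. Bisphosphoglycerate mutase (Bpgm) is the red cell's side branch: it makes 2,3-bisphosphoglycerate, which lowers the affinity of haemoglobin for oxygen.

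The nuclei carried the authors' classes, Early, Int and Late, and 11 clusters. Int held 2043 to 3999 nuclei per library and Late 2176 to 4527, while Early held 16 to 310 and fewer than 50 in 3 libraries, so Early is given as values with no test. Late nuclei were shallower than Int nuclei, with medians of 5693 to 6812 fragments against 10121 to 14998. The 11 erythroid markers found in the table had summed scores of 2412 to 2644 in WT and 2090 to 2304 in KO libraries, and 9 of them passed the test as lower in KO. The 7 myeloid markers summed to 68.0 to 77.2 in WT and 89.1 to 94.9 in KO, 4 of them passing as higher, and none of these markers was at 0. The 6 lymphoid markers summed to 77.8 to 83.0 and 87.7 to 95.9, with 1 higher. The 5 megakaryocyte markers summed to 181 to 209.7 and 218 to 234, with 1 higher and 1 lower. Over all genes tested 29.1% passed as higher in KO and 14.2% as lower, and these shares depended on the score level. Of genes with a mean score from 5 to 20, 43.2% passed as higher. Of genes with a mean of at least 50, 30.2% passed as lower. All 11 erythroid markers lie in the upper band and most myeloid and lymphoid markers in the lower. Whether the markers differ from genes of like score, and whether these shifts bear on the glycolysis genes, was not tested. The Stag2 score itself did not pass the test (log2 fold change -0.05, limma adjusted p = 0.348), and as the deleted part is not known here and the score is a single value per gene, it does not check the deletion. Of 33320 distinct barcodes, 725 occurred in more than 1 library.

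Promoters of 4 members are shown because these genes carry the main results below: Bpgm had the largest rise from Int to Late nuclei among the 10 in both genotypes, Hk1 the largest fall, Pfkm was lower in KO, and Pklr is the red cell pyruvate kinase gene whose Late difference moved with depth. The sequences are RefSeq promoters of build GRCm38.p6, 250 bases before to 50 after the gene's start, read on the gene's own strand from 5′ to 3′. Each was the RefSeq start nearest to the deposited start of the gene, of 2 listed for Hk1, 4 for Pfkm, 1 for Bpgm and 2 for Pklr. Capitals mark GATAA or its other strand TTATC (the core bound by GATA factors such as Gata1), CACCC or GGGTG (the core bound by Klf1) and ACGTG or CACGT (the core of the hypoxia response element).
Bpgm (chr6:34476106-34476405, plus strand): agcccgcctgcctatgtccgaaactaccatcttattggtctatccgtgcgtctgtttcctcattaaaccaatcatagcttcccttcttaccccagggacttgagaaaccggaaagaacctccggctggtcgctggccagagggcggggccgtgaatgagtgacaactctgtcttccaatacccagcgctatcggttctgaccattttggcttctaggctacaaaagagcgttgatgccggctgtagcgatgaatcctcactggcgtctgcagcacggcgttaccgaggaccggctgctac
Hk1 (chr10:62379859-62380158, minus strand): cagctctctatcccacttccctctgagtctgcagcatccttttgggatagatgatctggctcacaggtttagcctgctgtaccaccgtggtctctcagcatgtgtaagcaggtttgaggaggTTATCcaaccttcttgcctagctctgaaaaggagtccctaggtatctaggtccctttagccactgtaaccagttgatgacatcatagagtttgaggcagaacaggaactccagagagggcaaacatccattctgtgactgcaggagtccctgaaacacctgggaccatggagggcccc
Pfkm (chr15:98092339-98092638, plus strand): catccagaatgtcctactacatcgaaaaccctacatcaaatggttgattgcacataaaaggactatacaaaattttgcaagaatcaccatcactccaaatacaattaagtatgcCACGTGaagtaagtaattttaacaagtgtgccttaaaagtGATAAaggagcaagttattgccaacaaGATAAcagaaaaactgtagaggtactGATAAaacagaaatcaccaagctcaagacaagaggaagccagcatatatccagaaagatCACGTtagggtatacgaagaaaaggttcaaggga
Pklr (chr3:89135892-89136191, plus strand): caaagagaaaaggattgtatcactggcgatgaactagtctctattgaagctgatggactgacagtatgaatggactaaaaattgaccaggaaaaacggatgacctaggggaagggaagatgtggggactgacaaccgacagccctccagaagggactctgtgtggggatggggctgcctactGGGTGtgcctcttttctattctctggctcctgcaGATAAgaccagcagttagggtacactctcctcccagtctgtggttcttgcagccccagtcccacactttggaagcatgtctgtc
The Bpgm window held none of the 3 motifs. Hk1 held 1 GATAA match, 128 bases before the start. Pfkm held 3 GATAA matches, 96, 69 and 43 bases before the start, and 3 ACGTG matches, of which those 136 and 135 bases before the start are the 2 strands of 1 palindrome and overlap. Pklr held 1 GATAA match 34 bases before the start and 1 CACCC match 68 bases before it. Over 32851 RefSeq promoters of the same length, 25.4% held GATAA, 57.5% CACCC and 19.6% ACGTG. Of the other 6 members, Aldoa held GATAA and CACCC, Gapdh and Pgk1 held CACCC and ACGTG, and Gpi1, Pfkl and Tpi1 held none. A match is a description of the letters and not a binding site.

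The first comparison asks how the accessibility of the glycolysis genes differs between Late and Int nuclei of the same library. Scores are means over nuclei, rescaled so that all genes of a library sum to 1000000, and changes are on the log2(score + 1) scale. A gene was called when limma gave an adjusted p under 0.05 (Benjamini-Hochberg over 15873 genes with a mean of at least 5 in both classes). The labels do not tie a library to an animal, so p-values measure the spread between these libraries. Late nuclei differed from Int nuclei in most genes: 30.6% were called higher and 42.7% lower in WT, and 28.9% higher and 41.9% lower in KO. Of the 10 glycolysis genes, 5 were higher and 2 lower in WT, and 3 were higher and 3 lower in KO. Their median change was 0.093 in WT and -0.012 in KO, against -0.080 and -0.087 over all genes tested.

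Bpgm had the largest change of the 10. Its Int scores were 139.9, 129.9 and 144 in WT and 118, 129 and 128 in KO, and its Late scores were 267, 249 and 266 in WT and 259, 251 and 253 in KO. Every Late library stood above every Int library. The score rose 1.88-fold in WT (log2 change 0.91, SE 0.04, limma adjusted p = 6.63e-15) and 2.03-fold in KO (1.02, SE 0.04, limma adjusted p = 1.33e-15). By size of increase Bpgm was number 78 of 15873 genes in WT and number 44 in KO. Both of its tested neighbours with a start within 100 kb, the aldo-keto reductase genes Akr1b7 and Akr1b10, were also called higher in Late nuclei in both genotypes, by less than Bpgm (the larger being 0.58 for Akr1b7 in WT and 0.51 for Akr1b10 in KO). In bins of nuclei with like numbers of fragments the difference stood: among WT nuclei with 8192 to 16384 fragments the mean score, here out of 10000 per nucleus, was 1.37 ± 0.05 (SD, n = 3) in Int and 2.56 ± 0.09 in Late.

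Gpi1, the isomerase between glucose 6-phosphate and fructose 6-phosphate, followed. It scored 44.3, 46.0 and 42.9 in WT Int nuclei against 57.2, 60.3 and 62.3 in WT Late nuclei, and 44.8, 41.0 and 42.6 against 53.7, 52.0 and 53.2 in KO. The classes did not overlap in either genotype, and the rise was 0.42 (SE 0.05, limma adjusted p = 1.38e-07) in WT and 0.30 (SE 0.05, limma adjusted p = 1.47e-05) in KO. A neighbour 83186 bp away, 4931406P16Rik, rose more, by 1.02 and 0.64.

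Aldoa scored 79.5, 86.9 and 72.5 in WT Int and 95.0, 92.4 and 92.5 in WT Late nuclei, and 88.0, 83.8 and 88.0 against 96.7, 101 and 113 in KO. It rose by 0.23 (SE 0.05, limma adjusted p = 1.59e-04) in WT and 0.25 (SE 0.05, limma adjusted p = 6e-05) in KO, higher in Late in 3 of 3 libraries of each genotype. Of its 13 tested neighbours 5 were called higher and 3 lower in WT.

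Pgk1, the first ATP-producing step, scored 33.4, 33.3 and 34.4 in WT Int and 37.1, 39.0 and 41.0 in WT Late nuclei. It rose by 0.20 in WT (SE 0.06, limma adjusted p = 0.00291), while the KO change of 0.09 did not pass (limma adjusted p = 0.153) although Late was above Int in 3 of 3 KO libraries. Under both other scalings limma called Pgk1 in KO as well, at 0.26 after quantile normalization (adjusted p = 0.000235) and 0.22 after median centring (adjusted p = 0.00125). Tpi1 passed in WT at 0.10 (limma adjusted p = 0.0361) and not in KO at -0.03 (limma adjusted p = 0.487). The Tpi1 call in WT ended after quantile normalization (0.04, adjusted p = 0.359), with no variance trend, with libraries matched in fragments (0.09), with Int and Late matched in fragments (below), without WT replicate 1 (0.05) and without WT replicate 3 (0.11).

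Hk1, the first enzyme of the pathway, went the other way. It scored 196, 186 and 192 in WT Int nuclei against 152, 144 and 139 in WT Late nuclei, and 181, 176 and 188 against 136, 132 and 142 in KO. Every Late library lay below every Int library, and the fall was near the same in both genotypes, -0.40 (SE 0.03, limma adjusted p = 5.83e-10) in WT and -0.41 (SE 0.03, limma adjusted p = 5.11e-10) in KO. Its 4 tested neighbours, among them Hk1os, whose body overlaps Hk1 (-0.34 in WT), all changed by less in both genotypes.

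Pfkm, the muscle-type subunit of phosphofructokinase, and Pklr, the pyruvate kinase gene of liver and red cells, were called lower in Late nuclei with all nuclei used. Pfkm changed by -0.20 in WT (limma adjusted p = 0.00201) and -0.32 in KO (limma adjusted p = 1.37e-05), and Pklr by -0.15 in WT (limma adjusted p = 0.087, not called) and -0.32 in KO (limma adjusted p = 9.69e-04). The WT call of Pfkm ended under median centring (-0.08, adjusted p = 0.197) and the KO call of Pklr after quantile normalization (-0.09, adjusted p = 0.197), while Pklr in WT was called with fragment weighting (-0.20), with libraries matched in fragments (-0.22) and without WT replicate 3 (-0.25). These calls also moved with the depth of the nuclei. When Int and Late nuclei of a library were matched in fragments, Pfkm changed by -0.05 in WT and -0.14 in KO and Pklr by -0.03 and 0.0082, and limma called none of these 4 (adjusted p = 0.61, 0.112, 0.846 and 0.957). Among WT nuclei with 8192 to 16384 fragments the Pfkm score was 0.455 ± 0.016 in Int and 0.462 ± 0.029 in Late, out of 10000 per nucleus. Other bins of fragments differed. In WT, Late was above Int at 1024 to 2048 fragments (0.396 against 0.371). It was below Int from 2048 to 8192, with 0.364 against 0.398 at 2048 to 4096. In KO, Late was below Int in every bin from 1024 to 16384, with 0.2722 against 0.3598 at 2048 to 4096 and 0.368 against 0.389 at 8192 to 16384. These bins carry no test. In the matched nuclei Bpgm (0.83 and 0.94 in WT and KO), Gpi1 (0.40 and 0.38), Aldoa (0.24 and 0.23) and Hk1 (-0.36 and -0.35) were called as before, Pgk1 was called in WT (0.32) and not in KO (0.07), Tpi1 was no longer called (0.08 in WT) and Gapdh was called higher in WT (0.27, limma adjusted p = 0.0248).

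Gapdh and Pfkl were not called in either genotype with the common sum. Quantile normalization called Pfkl higher in Late nuclei (0.52 in WT, limma adjusted p = 9.22e-05, and 0.38 in KO, adjusted p = 0.00175), and Gapdh was called higher in WT under median centring (0.20, adjusted p = 0.0073) and without WT replicate 2 (0.21). Gapdh scored 47.1, 51.9 and 34.4 in WT Int and 47.1, 46.3 and 46.3 in WT Late nuclei, and 45.7, 41.9 and 43.9 against 45.7, 40.2 and 40.4 in KO. WT replicate 3 was low for Gapdh in Int nuclei, and it was also the lowest WT library there for Pklr (22.1 against 29.8 and 31.0) and Pfkl (6.89 against 9.11 and 9.71). That library had the fewest fragments per Int nucleus, with a median of 10121. Pfkl, the liver-type subunit, had low scores throughout, from 6.89 to 10.7 over the 12 values of library and class.

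**Figure D1:**
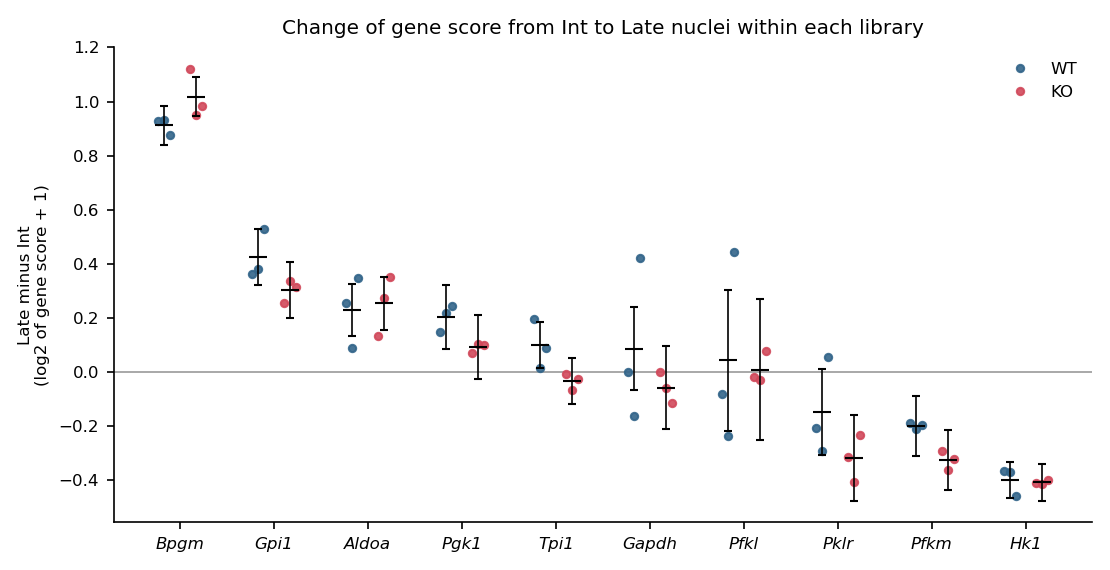
Late minus Int difference of log2(gene score + 1) for the 10 genes, 1 point per library (blue WT, red KO, 3 each), with the fitted mean (dash) and its 95% interval from limma. Bpgm lies between 0.88 and 1.12 in all 6 libraries, Hk1 lies between -0.46 and -0.37 and Gpi1 between 0.26 and 0.53, and no library of any other gene than Bpgm lies above 0.53.

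Early values differed from both later classes in several members. Gapdh scored 132 and 118 in the 2 WT libraries and 134 in the 1 KO library with at least 50 Early nuclei, against at most 51.9 in any Int or Late library. Pklr scored 71.1 and 78.6 in WT and 75.6 in KO, against at most 31.5 later, and Pfkm scored 81.0 and 80.3 in WT and 73.5 in KO, against at most 49.7. Bpgm was lowest in Early nuclei, at 106.0 and 93.0 in WT and 91.5 in KO. The Early nuclei of these 3 libraries were deep, with medians of 41018 to 44046 fragments, and the scores of Pfkm and Pklr also rose with depth among Int nuclei. The classes were therefore also set side by side, after seeing the data and with no test, among nuclei with 32768 to 65536 fragments, where scores are out of 10000 per nucleus. There Gapdh was 1.27 and 1.17 in WT Early nuclei and 1.29 in KO, against 0.904, 0.747 and 0.799 in Int nuclei of the same libraries. In proportion this difference of Gapdh was smaller than that over all nuclei of the classes. The same held for Pklr, Pfkm and Bpgm, given next, in all 3 libraries. Pklr was 0.740, 0.809 and 0.797 in Early against 0.385, 0.422 and 0.499 in Int nuclei, and Pfkm 0.804, 0.767 and 0.726 against 0.697, 0.705 and 0.596. Bpgm was 1.04, 0.949 and 0.918 against 1.29, 1.22 and 1.09. Each gene kept its direction in all 3 libraries, though within this range the Early nuclei were still the deeper (medians of 44290 to 48331 fragments against 37237 to 38237).

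Within Int, the clusters C9 (nearly all WT) and C8 (nearly all KO) had higher Gapdh and Pklr scores than C11 and C10. They were also deeper, with library medians of 16659 to 19428 fragments in C9 and 20901 to 21520 in C8. The medians were 14126 to 15501 in C11 and 14912 to 16077 in C10. In the shallow C6 (WT, 5027 to 5872) Gapdh was 29.7 ± 4.3 and Pklr 19.7 ± 2.1. Whether depth bears on these cluster values was not tested. Gapdh was 68.4 ± 11 (SD, n = 3 libraries) in C9 and 61.8 ± 1.8 in C8, against 37.7 ± 3.4 in C11 (WT) and 35.2 ± 2.3 in C10 (KO). In C5, which holds both genotypes, Gapdh was 57.8 ± 24.0 in WT and 36.9 ± 2.3 in KO. Pklr was 42.6 ± 4.5 and 41.0 ± 1.3, against 24.2 ± 2.7 and 24.3 ± 1.4. Bpgm showed the opposite order, with 121 ± 7 in C9 and 113 ± 4 in C8, 139 ± 3 in C11 and 131 ± 4 in C10, 153 in C6 (WT) and 263 ± 10 and 254 ± 6 in the Late clusters C3 (WT) and C2 (KO). The clusters were built on accessibility that includes these genes, so the cluster values are a description.

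**Figure D2:**
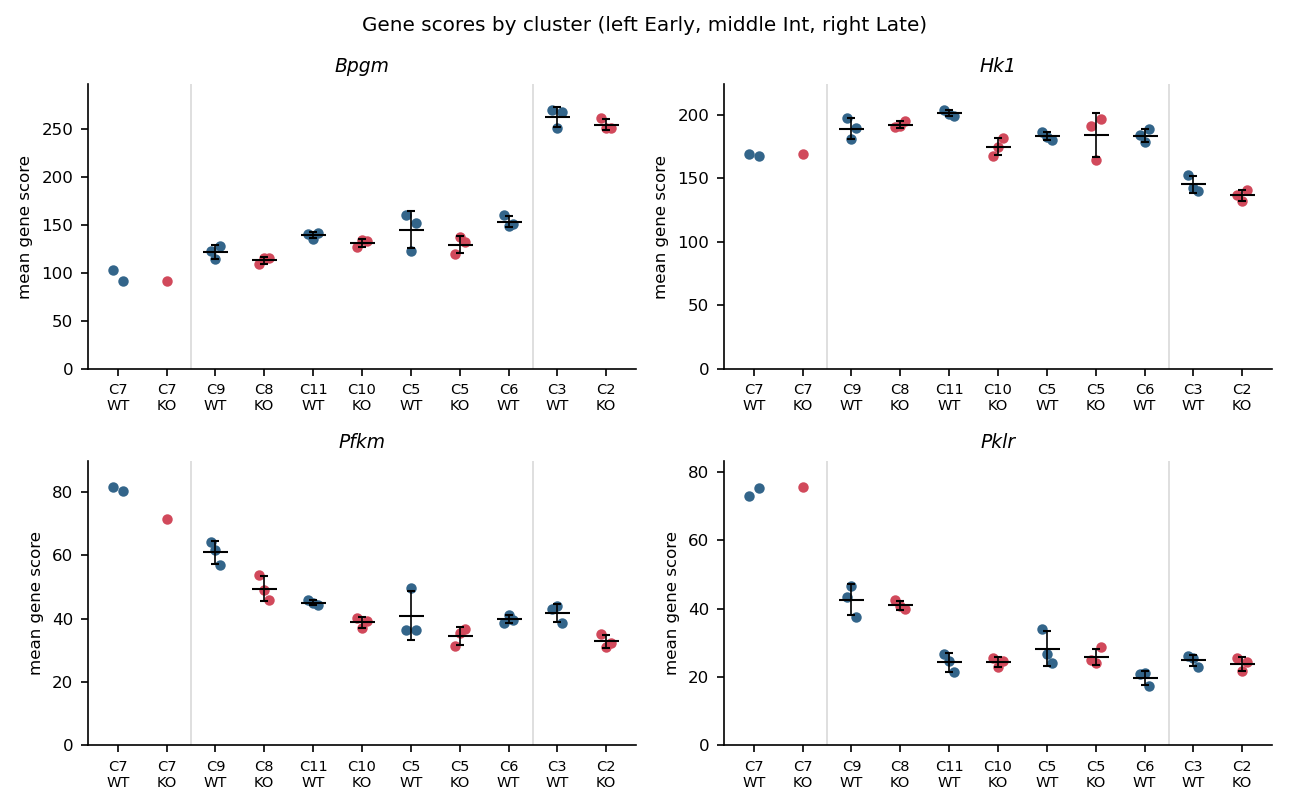
Mean gene score (of 1000000 over all genes) of Bpgm, Hk1, Pfkm and Pklr by cluster and genotype, 1 point per library with at least 50 nuclei (blue WT, red KO), with mean and SD where there are 3. The Early cluster C7 is at the left, Int clusters in the middle and Late clusters at the right: Bpgm steps up to 263 and 254 in C3 and C2, while Pfkm and Pklr are highest in C7.

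The second comparison asks how loss of Stag2 changed the scores. Over all nuclei 29.1% of 17682 genes were called higher in KO and 14.2% lower. Of the glycolysis genes 1 was called higher (Aldoa) and 1 lower (Pfkm). In Int nuclei 12.7% of genes were called higher and 7.1% lower, and of the 10 members Pfkm alone was called, as lower. In Late nuclei 32.9% were called higher and 18.5% lower, with 1 member higher (Aldoa) and 3 lower (Pfkm, Tpi1 and Gpi1). The members' median change was -0.06, -0.02 and -0.07 in all, Int and Late nuclei, against 0.10, 0.06 and 0.05 over all genes tested. The change also depended on the score level. Genes with a mean of at least 50 had medians of -0.07, -0.06 and -0.06, with 30.2%, 16.8% and 32.5% called lower. Genes with a mean from 20 to 50 had medians of 0.08, 0.08 and 0.03, with 11.8%, 5.44% and 19.7% called lower. Over all nuclei Hk1, Gpi1, Aldoa, Tpi1 and Bpgm lie in the upper of these bands. Pfkm, Gapdh, Pgk1 and Pklr lie in the lower, and Pfkl lies under 20. Whether the members differ from genes of like score was not tested. The share of calls that were higher depended on the scaling: it was 67.1% in all nuclei with the common sum, 46.9% after quantile normalization and 35.4% after median centring. The same shares were 64.2%, 50.7% and 24.4% in Int and 64%, 46.5% and 47.9% in Late nuclei. The median change over all genes moved from 0.096 to -0.05 under median centring of all nuclei, and the changes below are relative to the common sum. Under median centring 6 members were called over all nuclei, all 6 as lower.

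Pfkm was the member with the largest difference. In Late nuclei it scored 42.2, 42.8 and 38.0 in WT and 34.8, 30.9 and 32.2 in KO, and all 3 KO libraries lay below all 3 WT libraries. The difference was -0.32 (SE 0.07, limma adjusted p = 0.00173), a score 0.80 times that of WT, and it ranked 728 from the bottom of 15886 genes. In Int nuclei the values were 48.3, 49.7 and 43.6 in WT and 42.8, 40.0 and 40.5 in KO, again without overlap, and the difference was -0.19 (SE 0.07, limma adjusted p = 0.0426). Over all nuclei it was -0.24 (SE 0.07, limma adjusted p = 0.0122). The Int call was lost in 8 of 19 alternatives, among them leaving out WT replicate 1 (-0.18), WT replicate 2 (-0.16), KO replicate 2 (-0.18) or KO replicate 3 (-0.18), and the call over all nuclei was lost in 2 of 18, with fragment weighted nuclei (-0.22, adjusted p = 0.145) and without KO replicate 2 (-0.19). The Late call was lost in 1 of 19, which used cluster C2 alone (0.80), where the WT libraries held 58 to 68 nuclei with medians of 1920 to 2259 fragments. With the libraries matched in fragments per nucleus within each class the differences were -0.31, -0.25 and -0.37 in all, Int and Late nuclei, each called.

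Pfkm was also compared by cluster. It was 49.5 ± 4.0 in C8 (KO) and 61.0 ± 3.6 in C9 (WT), 38.8 ± 1.7 in C10 (KO) and 45.1 ± 0.7 in C11 (WT), and 32.8 ± 2.0 in C2 (KO) and 41.8 ± 2.8 in C3 (WT), with no overlap of libraries in any of these 3 pairs. In C6, an Int cluster with too few KO nuclei to compare, Pfkm was 39.8 ± 1.3 in WT, near the value of C10 (KO) and below that of C8 (KO). In C5, the Int cluster that both genotypes shared, the values were 34.6 ± 2.9 in KO and 40.8 ± 7.8 in WT and overlapped. In C2, the other cluster with at least 50 nuclei in all 6 libraries, the direction was opposite, with 32.8 ± 2.0 in KO and 20.02 ± 10.57 in the few shallow WT nuclei. In the pairs C8 and C9, C10 and C11, and C2 and C3 cluster and genotype cannot be told apart. Int nuclei of the 2 genotypes lay mostly in unlike clusters, so the Int difference does not hold the cluster fixed. The start of Senp1, a SUMO protease gene whose body overlaps Pfkm, is 980 bp from that of Pfkm. Senp1 was not called between genotypes in Late nuclei (-0.11, limma adjusted p = 0.304), and in Late against Int nuclei it was lower by more than Pfkm (-0.41 in WT and -0.49 in KO).

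Gpi1 and Tpi1 were called lower in KO in Late nuclei and were not called over all or in Int nuclei. Over all nuclei both were called in other settings. One matched the libraries in fragments within each class, which also evened the mix of classes between libraries. There the differences were -0.18 for Gpi1 (limma adjusted p = 0.00525) and -0.14 for Tpi1 (adjusted p = 0.0364). Under median centring they were -0.27 each. Over all nuclei Gpi1 was also called after quantile normalization (-0.13, limma adjusted p = 0.0356), and Tpi1 with the replicate block (-0.13, adjusted p = 0.033), without WT replicate 3 (-0.18, adjusted p = 0.018) and without KO replicate 3 (-0.16, adjusted p = 0.0375). The difference between Late and Int was not called for either. Gpi1 scored 57.2, 60.3 and 62.3 in WT Late nuclei and 53.7, 52.0 and 53.2 in KO, with no overlap (-0.17, SE 0.05, limma adjusted p = 0.0132). Its neighbour 4931406P16Rik was lower by more there (-0.36, limma adjusted p = 2.27e-04). Tpi1 scored 86.5, 77.0 and 74.4 in WT and 70.0, 65.9 and 73.3 in KO (-0.18, SE 0.06, limma adjusted p = 0.0228), and the call ended after quantile normalization (-0.14, adjusted p = 0.0739), with no variance trend (adjusted p = 0.0716), in C2 alone (-0.11) and without WT replicate 1 (-0.12, adjusted p = 0.106) or KO replicate 2 (-0.14, adjusted p = 0.103). In Int nuclei the differences were -0.05 for both genes and were not called, though under median centring limma called Gpi1 there (-0.23, adjusted p = 0.0352).

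Aldoa was higher in KO in Late nuclei, at 96.7, 101 and 113 against 95.0, 92.4 and 92.5 in WT (0.15, SE 0.05, limma adjusted p = 0.0345), and over all nuclei (0.14, SE 0.05, limma adjusted p = 0.0373). Over all nuclei this rise is of the size of the scaling shift. Median centring moved the median over all genes there from 0.096 to -0.05, and the Aldoa difference to -0.011. In Late nuclei the shift was smaller, from 0.052 to -0.013, and the Aldoa difference was 0.08. Under median centring limma called Aldoa in neither, while after quantile normalization its calls held in both. Leaving out WT replicate 3, KO replicate 3 or, in Late nuclei, WT replicate 2 or KO replicate 2 also ended the calls (0.08 and 0.10 over all nuclei, 0.09 to 0.16 in Late nuclei). In all the call was lost or reversed in 7 of 18 alternatives over all nuclei, among them no filter, a filter at a mean of 20, no variance trend and fragment weighting (0.12, adjusted p = 0.149), and lost in 8 of 19 in Late nuclei, among them no variance trend and libraries matched in fragments (0.14, adjusted p = 0.054).

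Hk1 did not pass in any of the 3 groups of nuclei with the common sum (-0.07, -0.08 and -0.09 in all, Int and Late), but under median centring limma called it lower in all (-0.22, adjusted p = 0.0326) and Late nuclei (-0.15, adjusted p = 0.0121). Bpgm differed by -0.14 in Int nuclei, where all KO libraries lay below all WT libraries but limma's adjusted p was 0.0505, and by -0.03 in Late nuclei (95% interval -0.12 to 0.05). The Int difference of Bpgm was called in 5 of 19 alternatives, with values from -0.32 (median centring) to -0.14. Gapdh differed by -0.15 in Late nuclei with no overlap and an adjusted p of 0.0621, and limma called it with libraries matched in fragments (-0.22, adjusted p = 0.0211), under median centring (-0.21, adjusted p = 0.00964), without shared barcodes (-0.17) and without KO replicate 1 (-0.20). Pfkl in Late nuclei was called in 1 of 18 alternatives, with libraries matched in fragments (0.31, adjusted p = 0.0485) and was -0.17 after quantile normalization. Pfkl differed by 0.18 over all nuclei (95% interval -0.05 to 0.42), Pklr by 0.06 (-0.16 to 0.27) and Pgk1 by -0.01 (-0.15 to 0.12), none of them called. Libraries of the 2 genotypes did not overlap in 4, 2 and 5 of the 10 genes in all, Int and Late nuclei, against 55.4%, 37.3% and 59.5% of all genes tested. As shares of 10 members these counts lie below the share over all genes in each group of nuclei.

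**Figure D3:**
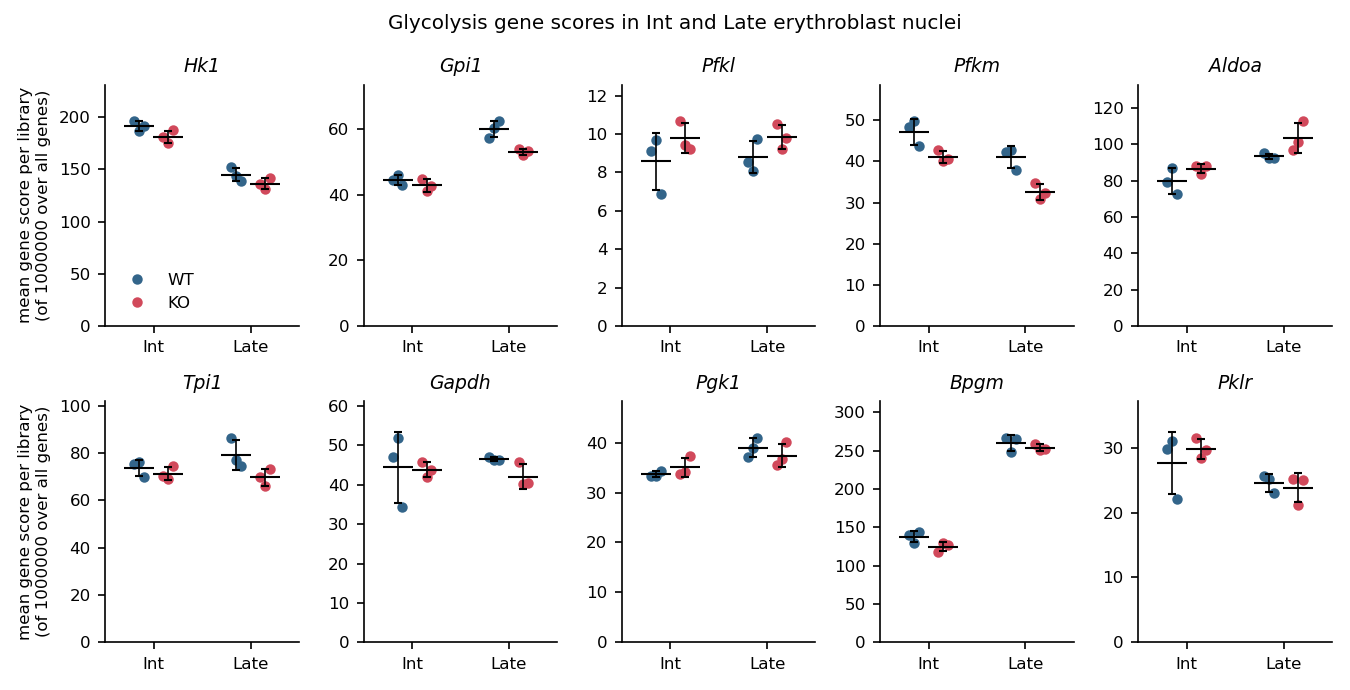
Mean gene score per library (of 1000000 over all genes) of the 10 genes in Int and Late nuclei (axes start at 0 and differ between genes), 1 point per library (blue WT, red KO), with mean and SD of 3. In Late nuclei the KO points lie below the WT points for Pfkm, Gpi1, Tpi1 and Gapdh and above them for Aldoa, and the step from Int to Late is largest for Bpgm.

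**Figure D4:**
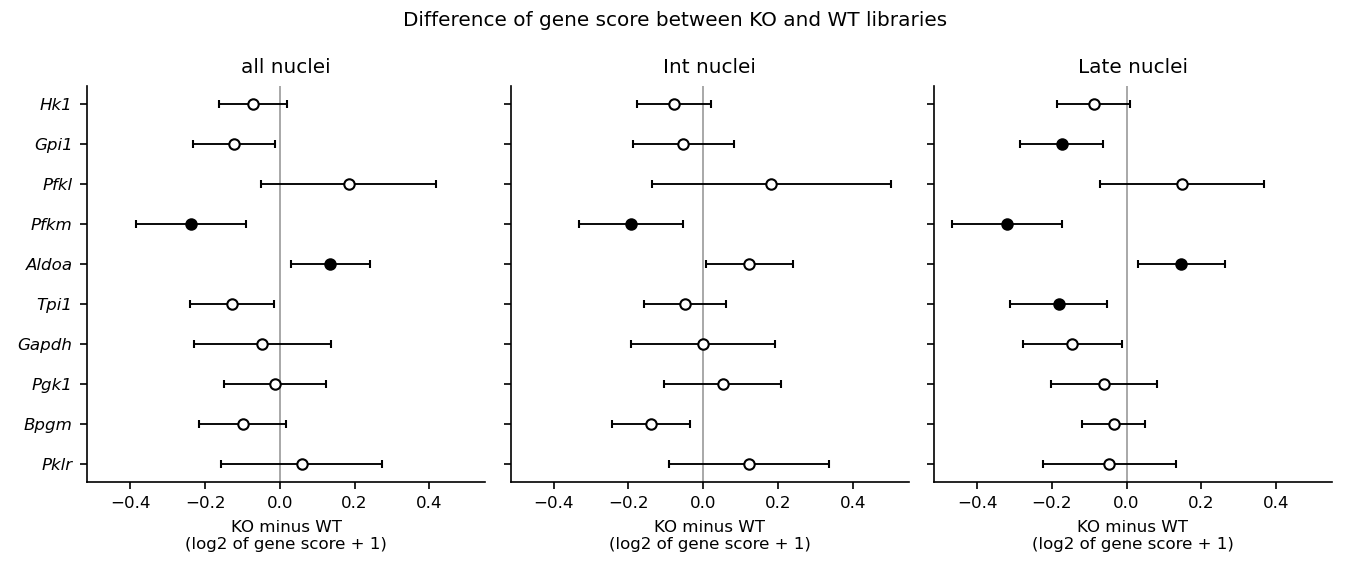
KO minus WT difference of log2(gene score + 1) with its 95% interval from limma in all, Int and Late nuclei, 3 libraries per genotype. Filled points passed an adjusted p of 0.05: Pfkm in all 3 panels, Aldoa in all and Late nuclei (its value over all nuclei is -0.011 under median centring), Gpi1 and Tpi1 in Late nuclei.

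The third comparison tested whether the KO difference itself differed between Late and Int nuclei. Over all genes 6.41% were called, and none of the 10 members was called by limma (2 had an unadjusted p under 0.05). Those 2 were Bpgm, with a rise larger in KO by 0.11 (95% interval 0.00 to 0.21, adjusted p = 0.236), and Tpi1 (-0.13, 95% interval -0.26 to -0.01, adjusted p = 0.208). For Pfkm the difference was -0.13 (95% interval -0.28 to 0.03, adjusted p = 0.378), so its larger fall in Late than in Int nuclei was within error. Of the calls over all genes 65.6% were positive with the common sum, 55.3% after quantile normalization and 77.1% after median centring. With Int and Late nuclei matched in fragments limma again called none of the members.

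Several steps of the pathway have more than 1 gene, and other genes of these steps were compared over all nuclei. The mix of classes differed between libraries, and how far it bears on these differences was not tested. Of these other isoforms 4 of 5 tested were called higher over all nuclei. In Int nuclei 2 of 6 were, and in Late nuclei 4 of 5, beside 12.7% and 32.9% over all genes. Pfkp, the platelet-type phosphofructokinase subunit, rose from 8.85 ± 1.55 (SD, n = 3) to 16.7 ± 1.4 (0.85, SE 0.12, limma adjusted p = 4.21e-05). Hk2 rose from 10.6 ± 1.1 to 14.9 ± 1.0 (0.45, limma adjusted p = 0.00414) and Pkm, the other pyruvate kinase gene, from 9.08 ± 1.02 to 11.8 ± 1.3 (0.35, limma adjusted p = 0.0246). Aldoc went from 115 ± 3 to 108 ± 3 and was not called (-0.08, limma adjusted p = 0.108). Under quantile normalization the changes of Hk2 and Pkm were 0.17 and 0.08 and limma no longer called them, while Pfkp was still called (0.58), and under median centring Pfkp, Hk2 and Pkm were all called. Hk3 had a mean under 5 and was not tested over all nuclei. Calls depended on the level of a gene: of 7320 genes with a mean score from 5 to 20, 43.2% were called higher and 1.11% lower, with a median change of 0.26, whereas of 6581 genes with a mean of at least 50, 11.3% were called higher and 30.2% lower, with a median of -0.07. Pfkp, Hk2 and Pkm lie in the low band, as does Pfkl, and Hk1, Gpi1, Aldoa, Tpi1 and Bpgm in the high one. Whether the isoform differences differ from those of genes of like score was not tested.

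As ratios within a library over all nuclei, Pfkm to Pfkl was 2.22, 2.26 and 2.21 on the log2 scale in WT and 1.81, 1.79 and 1.82 in KO, a difference of -0.42. Hk2 to Hk1 was higher in KO by 0.53 and Pkm to Pklr by 0.29. In each of the 3 ratios the 3 KO libraries stood apart from the 3 WT libraries, and the two-sided exact permutation test gave p = 0.1 for each, the smallest that 3 against 3 libraries allow, and 0.1 after Benjamini-Hochberg adjustment over the 3. Among single genes the libraries stood apart in 55.4%. Each ratio sets a gene with a mean score from 5 to 20 (Pfkl, Hk2 or Pkm) against a gene of a higher band. The median change was 0.26 in that low band, 0.08 from 20 to 50 and -0.07 from 50. Whether the ratios differ from those of other genes of like score was not tested.

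**Figure D5:**
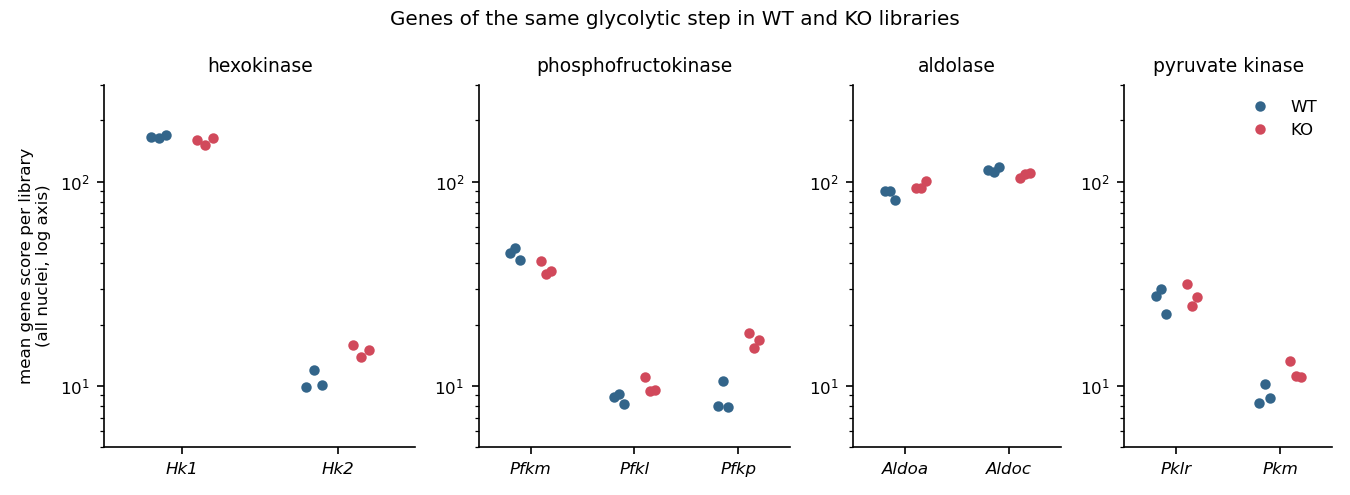
Mean gene score per library over all nuclei (log axis) for genes of the same glycolytic step, 1 point per library (blue WT, red KO). Only genotypes within a gene are compared, since the sources used here do not give whether scores are scaled by gene length. Pfkp and Hk2 lie higher in all 3 KO libraries than in all 3 WT libraries, and Pfkm lies lower.

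The wider pathway was read from 42 further genes in 6 lists, of which 36 were tested over all nuclei, with 16 higher in KO, 8 lower and 12 not called, beside 29.1% higher and 14.2% lower over all genes. In Int nuclei 10 of 38 tested were higher and 6 lower, beside 12.7% and 7.1% over all genes. In Late nuclei 15 of 35 were higher and 8 lower, beside 32.9% and 18.5%. The changes of single genes below are over all nuclei, whose mix of classes differed between libraries. Of the genes named below as higher, Slc2a1, Ldha, Pfkfb3, Hif1a, Egln1 and Egln3 lie in the band of mean scores from 5 to 20, where 43.2% of all genes were called higher. The balance turned with the scaling, with 9 higher and 7 lower after quantile normalization and 11 higher and 15 lower after median centring. Of the 6 transporters 2 were higher and 3 lower: Slc2a1, the glucose transporter GLUT1, rose from 11.9 ± 0.4 to 16.6 ± 0.2 (0.45), and the lactate transporters Slc16a1 and Slc16a3 fell by 0.23 and 0.20. Of 7 remaining glycolytic and lactate steps tested, 3 were higher and none lower: Ldha, lactate dehydrogenase (0.45), and the 2 steps after Pgk1, Pgam1 (0.17) and Eno1 (0.20). Eno1 and Pgam1 also rose from Int to Late in both genotypes (0.33 and 0.38 in WT, 0.22 and 0.24 in KO). Of the 4 tested regulators of phosphofructokinase 1 was higher and 2 were lower: Pfkfb3, which makes its activator fructose 2,6-bisphosphate, rose by 0.69, and Pfkfb1 and Pfkfb2 fell by 0.38 and 0.19. Of 7 pentose phosphate genes 2 were higher and 2 lower, led by Pgls, 6-phosphogluconolactonase, from 49.7 ± 4.6 to 86.8 ± 2.0 (0.80, limma adjusted p = 1.49e-08), with Pgd, 6-phosphogluconate dehydrogenase, at 0.25 and Rpe at -0.17. Of 7 regulators of glycolysis genes 4 were higher and 1 lower, with Hif1a, the hypoxia-inducible factor, at 0.59 and its prolyl hydroxylases Egln1 and Egln3 at 0.58 and 0.43. Egln3 had a mean of 4.20 in WT and 6.02 in KO, so it passed the filter at 5 only through its KO libraries. Its call, counted among these 4, is therefore not evidence of a rise. In Int nuclei limma did not call Egln3 (0.24, adjusted p = 0.286). Of these named genes Slc2a1, Ldha and Egln3 were not called after quantile normalization (0.17, 0.17 and 0.15), and Eno1, Pgam1 and Pgd were not called after median centring (0.06, 0.03 and 0.10).

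From Int to Late nuclei the wider pathway moved in both directions. In WT 13 of 35 tested genes were higher and 12 lower, and in KO 13 were higher and 14 lower, beside 30.6% higher and 42.7% lower over all genes in WT and 28.9% and 41.9% in KO. The counts were 18 and 11 in WT and 13 and 11 in KO after quantile normalization, and 15 and 10 and 15 and 9 after median centring. Taldo1, transaldolase of the pentose phosphate pathway, rose by 0.67 in WT and 0.65 in KO, and Pgd by 0.53 and 0.50. Myc, an activator of glycolysis genes, fell by 1.36 in WT and 1.04 in KO, from 48.9 ± 13.0 to 18.0 ± 1.3 in WT. The calls over all genes changed their balance with the scaling here too: 41.7% of the WT calls were higher with the common sum and 55.1% after either quantile normalization or median centring, and in KO the shares were 40.8%, 54.2% and 56.6%.

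Across the 12 values of library and class (Int and Late of 6 libraries, which share library and depth), the gene most like a member elsewhere in the genome was found by Pearson's r of the log2 scores. Bpgm was most like Eif2ak1, the haem-regulated kinase that stops globin translation (r = 0.998). Hk1 was most like C330020E22Rik (0.993), Pfkm like Rfc4, a replication factor subunit (0.992), Gpi1 like Prpsap1 (0.981), Aldoa like Hsp90ab1, a chaperone (0.969), Pklr like Fam20a (0.951), Pfkl like Itgb4 (0.933), Pgk1 like Plk3 (0.930) and Gapdh like Mrps18a (0.892). Among the members themselves Bpgm and Gpi1 rose together (r = 0.915 over the 12 values) and Bpgm and Hk1 were opposed (-0.929). These r values are descriptions and carry no test.

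By position, the 10 genes lie on 6 chromosomes in the deposited annotation, which matched RefSeq GRCm38.p6 to within 1000 bp at both ends for all 10. Bpgm is at chr6:34476356-34505610 (plus strand), Tpi1 at chr6:124810592-124814296 and Gapdh at chr6:125161852-125166467 (both minus), Hk1 at chr10:62268855-62379908 and Pfkl at chr10:77986947-78009796 (both minus), Gpi1 at chr7:34201327-34230336 and Aldoa at chr7:126795234-126800447 (both minus), Pfkm at chr15:98092589-98132447, Pgk1 at chrX:106187100-106203699 and Pklr at chr3:89136142-89146594 (all plus). The table gives a single score per gene, and the region and weights behind it are not given in the sources used here, so no value is assigned to an exon, intron or promoter.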

How the data were processed

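The values are gene scores per nucleus from the ATAC part of 10x multiome libraries of sorted Ter119+ erythroblasts, 3 WT and 3 KO. The deposited gene score is a signal that the authors scaled to about 10000 per nucleus. Its software and weights are not given in the sources used here. Fragment counts per nucleus, doublet scores, classes and clusters were used as deposited by the authors, and per the submitters' processing notes Cell Ranger and mm10 were used. Total fragments per library were 4.68e+07 to 6.63e+07 and the lowest nucleus had 1000.

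Scores were averaged over the nuclei of each library, and of each class or cluster with at least 50 nuclei, and rescaled to a sum of 1000000. Genes with a mean of at least 5 were tested on log2(score + 1) with limma 3.58.1 (lmFit, eBayes with trend, R 4.3.3) and Benjamini-Hochberg adjustment over all genes at 0.05. Late was compared with Int on within-library differences. No nucleus was removed as a doublet. Alternatives changed the scaling, pseudocount, filter, variance trend, weighting, fragment depth, clusters and libraries, and left out nuclei above the 90th percentile of the doublet score or with a barcode in another library. Libraries were matched in fragments within each class, so over all nuclei that setting also evened the mix of classes. The fits were tested on simulated data. Isoform ratios used a two-sided exact permutation test. The members are always named, with up to 3 genes per pathway list by size of change among those called, the tested neighbour with the largest change and the most similar gene at least 1 Mb away or on another chromosome. Members and lists were chosen with earlier results of these data known. Tables were made in Python 3.11.15 (pandas 2.3.3, scipy 1.17.1). The expression libraries and other assays of the series were not used here, and a few genes of the lists and of the likeness search are not reported here.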

Additional observations from a re-analysis of the deposited data

How the results depend on the processing

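The Late against Int calls of Bpgm, Hk1, Gpi1 and Aldoa held under all 18 alternatives in both genotypes. Restricting the fit to means of at least 20, which tests fewer genes, left 4244 (all nuclei), 4560 (Late), 7311 and 7230 (Late against Int in WT and KO) and 468 genes (difference of the KO effect) called. No filter gave 19202 and 18146 for Late against Int. Without the variance trend 1921 (Int) and 206 (difference) were called, with fragment weighted nuclei 2415 (all), in C5 alone 173 (Int), in C2 alone 0 (Late, limma) and with Int and Late matched in fragments 97 (difference). Without 1 library the counts ran from 2547 to 4782 (Int) and 309 to 2211 (difference).

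Members called over all nuclei were 6 with median centring, 4 with libraries matched in depth and class, 1 with no filter, a mean of 20 or no trend, 0 with fragment weighting, and 1 to 2 without 1 library. In Int nuclei they were 3 with median centring, 2 with pseudocount 5 or depth-matched libraries, 0 with no filter, no trend, in C5 or without high doublet scores, and 0 to 2 without 1 library. In Late nuclei they were 2 with no trend, 0 in C2 and 2 to 5 without 1 library. Median centring called 0 higher and 5 lower there, and quantile normalization 1 higher and 2 lower. With depth-matched libraries Pfkm, Gpi1, Tpi1 and Gapdh were called lower in Late nuclei and Pfkl higher. The replicate numbers did not pair the libraries (correlations of deviations -0.117, -0.273 and 0.206). The replicate block gave 2 members in Int nuclei, and over all genes 7470, 4527 and 7982 calls in all, Int and Late nuclei against 7661, 3858 and 8161.

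The following log2 differences changed sign. Over all nuclei (KO against WT), quantile normalization gave Pfkl -0.087 and Pklr -0.10, median centring Aldoa -0.011 and Pklr -0.087, fragment weighting Gapdh 0.021 and depth matching Pklr -0.0098. In Int nuclei, quantile normalization gave Pgk1 -0.044 and Pklr -0.024, median centring Aldoa -0.053, Pgk1 -0.12 and Pklr -0.053, fragment weighting Gapdh 0.017, leaving out shared barcodes Gapdh 0.014, and C5 alone Hk1 0.0035, Gpi1 0.074, Tpi1 0.22, Pgk1 -0.13 and Pklr -0.11. In Late nuclei, quantile normalization gave Pfkl -0.17 and Bpgm 0.025, and C2 alone Hk1 0.62, Gpi1 0.24, Pfkm 0.80, Bpgm 0.0013 and Pklr 1.22. For Late against Int in WT, quantile normalization gave Pklr 0.063, fragment weighting Gapdh -0.022 and depth matching Pfkl -0.12. In KO, quantile normalization gave Gapdh 0.040, median centring Tpi1 0.098 and Gapdh 0.072, fragment weighting Pfkl -0.051 and Tpi1 0.0015, leaving out shared barcodes Pfkl -0.013, and matching Int and Late in fragments Tpi1 0.012, Gapdh 0.23 and Pklr 0.0082. For the difference of the KO effect, median centring gave Hk1 0.0028, fragment weighting Hk1 0.0078, depth matching Pfkl 0.16, and matching Int and Late in fragments Hk1 0.0096, Aldoa -0.012 and Pklr 0.034. The cause of these changes was not tested.

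Without 1 library, values over all nuclei ran from -0.15 to 0.030 for Gapdh, -0.061 to 0.020 for Pgk1 and -0.052 to 0.14 for Pklr. In Int nuclei they ran from -0.17 to 0.12 for Gapdh and -0.025 to 0.21 for Pklr, and in Late nuclei from -0.092 to 0.031 for Pklr. Late against Int ran in WT from -0.16 to 0.18 for Pfkl and -0.081 to 0.21 for Gapdh, and in KO from -0.025 to 0.029 for Pfkl. The difference of the KO effect ran from -0.039 to 0.0066 for Hk1, -0.047 to 0.083 for Aldoa, -0.17 to 0.17 for Pfkl and -0.27 to 0.022 for Gapdh. The shared-barcode and fragment-matched Int and Late alternatives were chosen after seeing the data.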
